A study of Mus musculus with 42 samples.

Results

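Expression of 40 genes of DNA replication and mitosis was followed in forebrain cultures of 3 mouse genotypes, together with the chromatin peaks that name them in adult hippocampus. The members were taken by name, 20 for replication and 20 for mitosis, out of 52636 genes with a line in the count files. Gene counts came from 9 culture libraries, 3 per genotype, made from forebrain of embryonic day 16 and labelled as primary neurons of pooled sex. Peaks came from 3 lists for SMARCA2/4, the ATPases of the BAF chromatin remodelling complex, in hippocampus of male mice of 6 to 8 weeks, and from 3 ATAC-seq lists of open chromatin in sorted NeuN+ neuronal nuclei of male hippocampus. The study asked what returning the Brwd1 gene to its normal copy number does in a trisomic brain.

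The genotypes were euploid, Ts65Dn, and Ts65Dn;Brwd1+/-. Ts65Dn mice carry an extra segment made of distal chromosome 16 and proximal chromosome 17, on a mixed background. Ts65Dn;Brwd1+/- mice carry the same segment and a mutant allele of Brwd1 from their father. The cultures of all genotypes were, per the study's methods, cortical cells of individual embryos plated in serum and then kept in serum-free medium with AraC, a nucleoside that halts cells making DNA. The cells were collected for sequencing after days in culture, so the counts are not those of fresh embryonic forebrain. For SMARCA2/4, each library pooled unilateral hippocampus of 2 animals, and replicates were joined into 1 peak list per genotype for both chromatin assays.

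Dividing cells copy their DNA once and then separate the copies. Before S phase, CDC6 and CDT1 load the MCM2-7 helicase onto origins, and CDC45 and the GINS complex switch it on. E2F factors drive the genes of this phase, and at the G2/M transition cyclins A and B with CDK1, the aurora and polo kinases and the spindle checkpoint take over, under the MuvB complex with B-MYB or FOXM1, which acts through CHR elements, and NF-Y, which binds CCAAT boxes. Neurons have left the cycle, so in brain these genes mark progenitors and dividing glia.

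The promoters of 6 members are given first, since members that moved together and members that parted both carry these letters: Mcm5 and Mcm6 of the helicase, Cdk1, Top2a, Ube2c and the cyclin gene Ccnb2. Each is the 250 bases before the start in RefSeq (GRCm38.p6), 5′ to 3′ on the strand of the gene, with matches to an E2F-like string, a CHR element or CCAAT on either strand in capitals. Mcm5 is at chr8:75109259-75109508 (plus strand). Mcm6 is at chr1:128359706-128359955 (minus strand). Cdk1 is at chr10:69352913-69353162 (minus strand). Top2a is at chr11:99024190-99024439 (minus strand). Ube2c is at chr2:164769679-164769928 (plus strand). Ccnb2 is at chr9:70421555-70421804 (minus strand).
Mcm5: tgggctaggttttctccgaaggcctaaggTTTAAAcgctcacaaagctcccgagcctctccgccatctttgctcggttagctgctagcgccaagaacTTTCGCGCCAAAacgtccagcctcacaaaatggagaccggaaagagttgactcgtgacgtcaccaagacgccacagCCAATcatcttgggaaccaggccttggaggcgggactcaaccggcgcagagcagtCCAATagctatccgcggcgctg
Mcm6: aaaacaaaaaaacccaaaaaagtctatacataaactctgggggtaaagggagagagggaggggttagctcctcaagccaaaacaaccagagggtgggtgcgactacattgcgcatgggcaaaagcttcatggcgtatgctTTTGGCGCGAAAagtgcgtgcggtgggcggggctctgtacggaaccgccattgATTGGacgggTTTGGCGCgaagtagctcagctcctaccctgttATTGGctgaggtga
Cdk1: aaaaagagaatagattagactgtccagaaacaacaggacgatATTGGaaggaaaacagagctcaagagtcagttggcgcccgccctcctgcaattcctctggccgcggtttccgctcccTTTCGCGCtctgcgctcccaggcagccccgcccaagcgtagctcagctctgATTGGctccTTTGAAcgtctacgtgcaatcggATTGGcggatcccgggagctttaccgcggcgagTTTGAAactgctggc
Top2a: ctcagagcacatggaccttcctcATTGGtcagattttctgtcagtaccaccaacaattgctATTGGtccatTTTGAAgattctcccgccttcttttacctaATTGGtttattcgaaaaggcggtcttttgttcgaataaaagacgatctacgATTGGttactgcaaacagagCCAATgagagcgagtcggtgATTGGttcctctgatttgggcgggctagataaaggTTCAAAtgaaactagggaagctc
Ube2c: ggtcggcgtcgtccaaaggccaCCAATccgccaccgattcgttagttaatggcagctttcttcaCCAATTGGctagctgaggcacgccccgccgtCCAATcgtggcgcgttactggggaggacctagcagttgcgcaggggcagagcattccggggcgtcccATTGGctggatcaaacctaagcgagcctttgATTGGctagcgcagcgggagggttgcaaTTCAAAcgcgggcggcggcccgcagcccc
Ccnb2: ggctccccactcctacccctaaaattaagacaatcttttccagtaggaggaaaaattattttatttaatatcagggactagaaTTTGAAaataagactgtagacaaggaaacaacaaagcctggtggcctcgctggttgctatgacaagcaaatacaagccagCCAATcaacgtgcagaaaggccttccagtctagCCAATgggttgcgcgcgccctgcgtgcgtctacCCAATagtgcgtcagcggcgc

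Motif matches were described for the 33 members that had a window in the RefSeq promoter table of GRCm38.p6, which spans 250 bases before to 50 bases after the start of a gene. Matches to E2F-like letters (TTTCGCGC, TTTGGCGC or TTTCCCGC, either strand) stood in 8 of 17 replication genes and in 1 of 16 mitosis genes, Cdk1, beside 1.84% of all 32851 windows. A CHR element (TTTGAA or TTTAAA, either strand) stood in 14 of 16 mitosis genes and 6 of 17 replication genes, beside 27.6% of all windows. CCAAT on either strand stood in 14 of 16 mitosis genes and 12 of 17 replication genes, beside 37.4% of all windows. Both a CHR and a CCAAT match were held by 13 of 16 mitosis genes, by 5 of 17 replication genes and by 10.7% of all windows. The 8 replication genes with an E2F-like match were Mcm3, Mcm5, Mcm6, Mcm7, Cdt1, Cdc6, Uhrf1 and Pola1. A match is a string of letters and not a measured binding site, and E2F-like matches that face each other can overlap, as at Mcm5 and Mcm6.

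**Figure D1:**
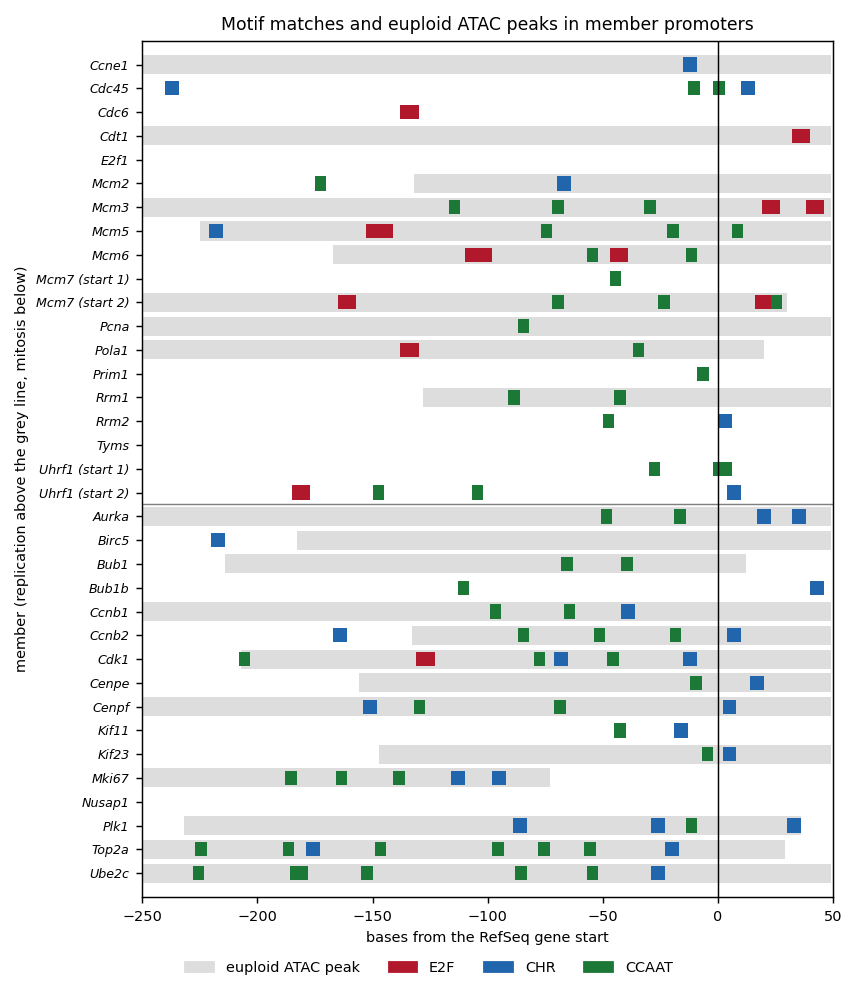
Motif matches (coloured blocks) and euploid ATAC-seq peaks (grey) in the promoter windows of 33 members, by distance in bases from the RefSeq gene start, with replication genes above the grey line and mitosis genes below. E2F-like blocks lie in 8 of 17 replication genes and 1 of 16 mitosis genes, and 79 of the 103 matches lie inside a euploid peak. Of the 35 windows of these members, 28 had a euploid peak within 1000 bases of the start, and these held 89 of the matches. The share of window bases inside peaks was not counted.

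Before the members, the labels were checked. Brwd1 stood at 93.2, 85.9 and 89.2 CPM (gene counts relative to library size, scaled by TMM) in euploid and at 129, 126 and 125 in Ts65Dn. The group labelled Ts65Dn;Brwd1+/- had 145, 146 and 124 CPM. It was higher in Ts65Dn than in euploid (log2 fold change 0.50 ± 0.08 SE, adjusted p = 0.000787, edgeR's quasi-likelihood test, Benjamini-Hochberg adjusted, as for every adjusted p in what follows). No fall from Ts65Dn was seen in the group labelled Ts65Dn;Brwd1+/- (0.13 ± 0.08 on the log2 scale, adjusted p = 0.186). Xist, the RNA that coats the silenced X of female cells, lay between 0.526 and 1.12 CPM in the euploid and Ts65Dn libraries and between 1409 and 1982 CPM in the libraries labelled Ts65Dn;Brwd1+/-, whose 4 Y-linked genes summed to at most 0.154 CPM, against 190 to 223 CPM in the other libraries. The label gives pooled sex for all 9. Sex and genotype therefore cannot be told apart in any contrast with that group. Library totals in genes ran from 17270070 to 25892802 counts, and Ts65Dn library 3 stood apart, with summed neuronal markers of 995 CPM against 2165 and 2457 in its fellow libraries. No member lies in the triplicated segment. Mcm4 and Cdc45 are on chromosome 16 and Uhrf1 on chromosome 17, all outside it.

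The summed levels of both sets stood higher in Ts65Dn than in euploid and higher again in the libraries labelled Ts65Dn;Brwd1+/-. The summed level of the 20 replication genes was 333, 361 and 381 CPM in the euploid libraries, 459, 514 and 558 CPM in Ts65Dn, and 737, 728 and 773 CPM in those labelled Ts65Dn;Brwd1+/-. The summed level of the 20 mitosis genes was 343, 356 and 365 CPM, then 484, 556 and 544 CPM, then 809, 796 and 778 CPM. In both sets the 3 groups did not overlap. The mean sums stood 1.42-fold higher for replication and 1.49-fold higher for mitosis in Ts65Dn than in euploid, and a further 1.46-fold and 1.51-fold higher in the libraries labelled Ts65Dn;Brwd1+/-. The mitosis sum divided by the replication sum stayed near 1, at 0.992 ± 0.036 in euploid, 1.04 ± 0.056 in Ts65Dn and 1.07 ± 0.051 in the libraries labelled Ts65Dn;Brwd1+/- (SD, n = 3 each), and these ranges overlap. In bulk RNA, fewer cells of a type and less RNA per cell cannot be told apart. The study's methods say that embryos were handled one by one and that samples of its molecular work were not pooled, while the labels give pooled sex and do not tie a library to an embryo, so the tests measure the spread between these libraries.

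**Figure D2:**
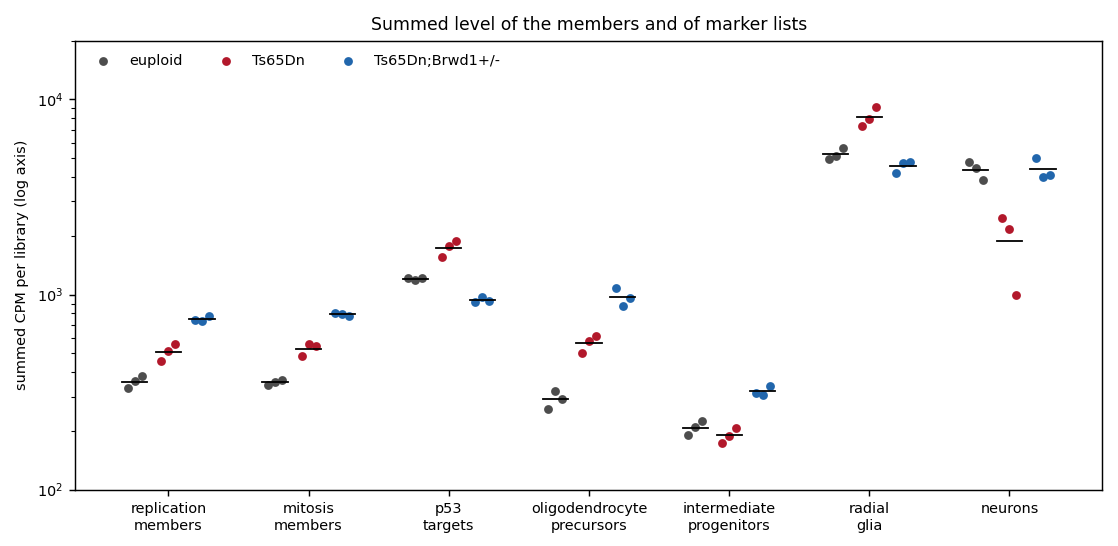
Summed CPM (log axis) of the replication members, the mitosis members and 5 other gene lists in each of 9 libraries, coloured by genotype, with a bar at the mean of 3. The replication sums run from 333 to 381 CPM in euploid and from 728 to 773 CPM in the libraries labelled Ts65Dn;Brwd1+/-, while the neuronal sum is lowest in the 3 Ts65Dn libraries.

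Of the 40 members, 39 passed the filter on low counts. Kif11, a spindle motor, had between 0 and 2 counts per library, so it was not tested and no fold is given. Another motor gene, Kif23, had 260 to 727 counts, and whether reads of Kif11 were lost in the counting was not tested, so its values do not show that the gene is silent. In Ts65Dn against euploid, 35 of 39 tested members were higher and 0 lower, beside 25.6% of the 17173 tested genes called higher and 21.1% called lower. The 35 were 17 of 20 replication and 18 of 19 mitosis members, and 0 members were lower at an unadjusted p under 0.05. The median log2 fold change over the members was 0.55, against 0.04 over all tested genes. From euploid to the libraries labelled Ts65Dn;Brwd1+/-, 38 of 39 were higher, 19 of 20 and 19 of 19, beside 14% of all tested genes higher and 15.2% lower, with a median of 1.08 against -0.02. From Ts65Dn to the libraries labelled Ts65Dn;Brwd1+/-, 31 of 39 were higher, 16 of 20 and 15 of 19, and 1 was lower, beside 27.6% of all tested genes higher and 30.5% lower, with a median of 0.51. These 3 contrasts share libraries, so their counts are not independent of each other.

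All 3 libraries of one group lay above all 3 of the other for 36 of 39 members in Ts65Dn over euploid, where 31.2% of all tested genes did so. The same held for 38 of 39 in the libraries labelled Ts65Dn;Brwd1+/- over euploid, beside 22.3% of all tested genes. For the last step, from Ts65Dn to the libraries labelled Ts65Dn;Brwd1+/-, it held for 32 of 39, beside 33.6%, and 1 member, Ccnb2, had all 3 libraries below.

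**Figure D3:**
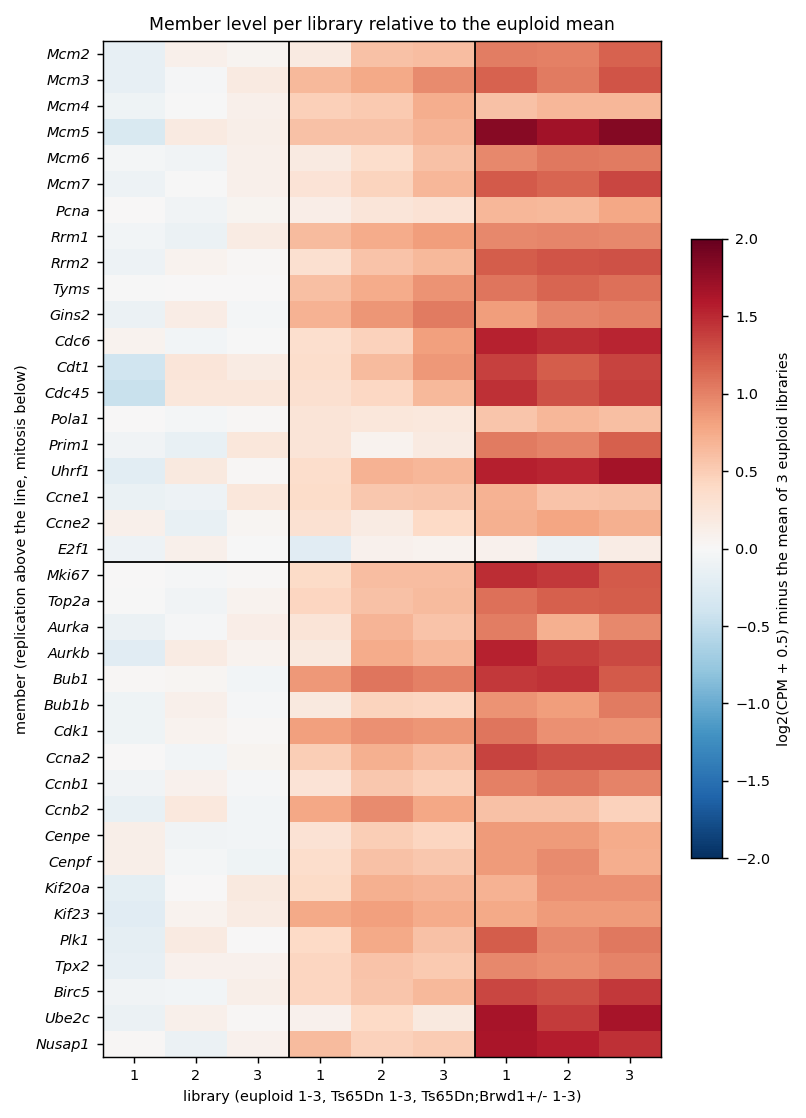
Level of each of 39 tested members in each library, as log2(CPM + 0.5) minus the mean of the 3 euploid libraries, with replication genes above the black line and mitosis genes below. Most rows darken from euploid to Ts65Dn and again to the libraries labelled Ts65Dn;Brwd1+/-, E2f1 stays pale in all 9 libraries, and the Mcm5, Ube2c and Nusap1 rows are among the darkest on the right.

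The members did not all climb both steps. By their calls, 28 of 39 were higher in both, 14 of each set. In part of the alternatives the first call was lost for Pcna, Pola1, Ccne2, Aurkb and Bub1b. The second was lost in part of them for Rrm1 and Aurka. Another 6 were higher in Ts65Dn than in euploid and were not called in the second step, namely Mcm4, Gins2, Ccne1, Cdk1, Kif20a and Kif23. Cdc45, Prim1 and Ube2c passed the test only in the second step, which does not by itself show that their steps differ, and Ccnb2 was higher in the first step and lower in the second. E2f1 passed in neither. The second step was the larger in 24 of 39 members.

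**Figure D4:**
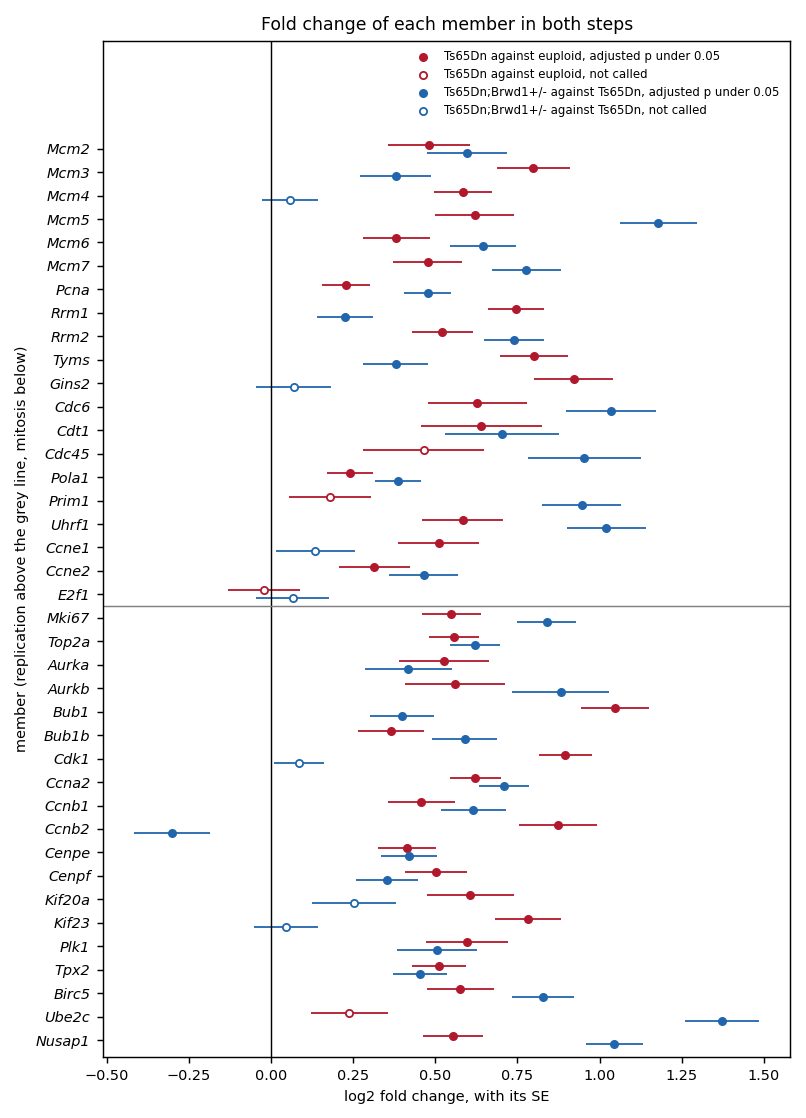
Log2 fold change of each tested member with its SE for Ts65Dn against euploid (red) and for the step from Ts65Dn to the libraries labelled Ts65Dn;Brwd1+/- (blue), with open points where the adjusted p missed 0.05. Ube2c, Mcm5 and Nusap1 have the largest blue values (1.37, 1.18 and 1.05), Bub1 the largest red one (1.05), and Ccnb2 is the single called blue point left of 0.

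The MCM2-7 helicase unwinds DNA at the fork and is built of 6 different subunits in equal number. All 6 were higher in Ts65Dn than in euploid, by 0.38 to 0.80 on the log2 scale. Mcm2 stood at 28.0, 33.8 and 32.7 CPM in euploid, at 35.8, 47.6 and 48.6 in Ts65Dn, while 64.0, 63.6 and 71.7 were found among libraries labelled Ts65Dn;Brwd1+/-. Its log2 fold changes were 0.48 ± 0.12 (adjusted p = 0.0101) and 0.60 ± 0.12 (adjusted p = 0.00207) for the first and the second step, and no libraries of different groups overlapped. Mcm3 had the largest first step of the subunits, from 18.1, 19.9 and 22.9 CPM to 31.9, 34.6 and 39.5, and then reached 46.5, 42.3 and 48.9 (log2 fold changes 0.80 ± 0.11, adjusted p = 0.000433, and 0.38 ± 0.11, adjusted p = 0.0126).

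Mcm5 and Mcm4 parted in the second step. Mcm5 stood at 12.9, 18.3 and 17.6 CPM in euploid, at 24.5, 24.5 and 26.1 in Ts65Dn, while 58.3, 52.7 and 58.8 were found among libraries labelled Ts65Dn;Brwd1+/-, a second step of 1.18 ± 0.12 on the log2 scale (adjusted p = 2e-05). The second step of Mcm4 was 0.06 ± 0.09 (adjusted p = 0.592), after a first step of 0.58 ± 0.09 (adjusted p = 0.000638). The ratio of Mcm5 to Mcm4 within a library was 0.579 ± 0.082 in euploid, 0.599 ± 0.037 in Ts65Dn and 1.3 ± 0.1 (SD, n = 3 each) in the libraries labelled Ts65Dn;Brwd1+/-, with no overlap between both trisomic groups. The pair was chosen for this difference, so the ratio is a description with no test. Per kilobase of exon, Mcm5 had the lowest mean level of the 6 subunits in euploid (4.07 CPM per kb, against 7.79 for Mcm4, the highest) and in Ts65Dn (6.26 against 11.7). In the libraries labelled Ts65Dn;Brwd1+/- Mcm2 was lowest at 9.55 and Mcm7 highest at 15.6 CPM per kb. The length used is that of all annotated exons joined, 6956 bases for Mcm2, the longest, and 3589 for Mcm4, the shortest. These ranks therefore depend on the annotation and do not give the proportions of the subunits. Before division by length Mcm2 had the highest mean of the 6, 47.3 CPM over the 9 libraries. The sequences printed for Mcm5 and Mcm6 both carry E2F-like matches.

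Of the 4 loading and activation factors, 3 were called in each step, and not the same 3. Cdt1, which brings the helicase to origins, stood at 4.66, 7.54 and 7.15 CPM in euploid, 8.25, 10.1 and 11.9 in Ts65Dn, and 17.1, 15.2 and 16.8 in the libraries labelled Ts65Dn;Brwd1+/- (0.64 ± 0.18, adjusted p = 0.0167, then 0.70 ± 0.17, adjusted p = 0.00593). Gins2, a subunit of the GINS complex that holds the active helicase together, went from 5.78, 7.02 and 6.15 CPM to 10.5, 12 and 13.4 and then stood at 11.7, 12.9 and 13.1. Its first step of 0.92 ± 0.12 (adjusted p = 0.000297) was the largest among replication members, and its second step of 0.07 ± 0.11 (adjusted p = 0.627) was not called. Cdc45, its partner in the active helicase, showed the other order, with 0.46 ± 0.18 (adjusted p = 0.0601) and then 0.95 ± 0.17 (adjusted p = 0.000927). Cdc6, the helicase loader, took 0.63 ± 0.15 and 1.03 ± 0.14 (adjusted p = 0.00741 and 0.000132).

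The 3 fork genes had the smallest median first step of the roles, 0.23 on the log2 scale. Pcna, the sliding clamp that tethers DNA polymerases, stood at 30.3, 28.6 and 31.1 CPM in euploid, 32.9, 35.8 and 36.9 in Ts65Dn, and 47.7, 47.5 and 51.5 in the libraries labelled Ts65Dn;Brwd1+/-. Its first step was 0.23 ± 0.07 (adjusted p = 0.0285) and its second 0.48 ± 0.07 (adjusted p = 0.000353). Pola1, the X-linked catalytic subunit of the polymerase that starts each strand, stood at 14.2, 13.7 and 14.4 CPM, then 16.9, 16.6 and 16.5, then 21.0, 22.7 and 21.7 (0.24 ± 0.07, adjusted p = 0.0195, and 0.39 ± 0.07, adjusted p = 0.001). These first steps are small and were lost in part of the alternatives: with DESeq2 the adjusted p was 0.0866 for Pcna and 0.0947 for Pola1. Prim1, the primase that works with Pola1, had a first step of 0.18 ± 0.13 (adjusted p = 0.272) and a second of 0.95 ± 0.12 (adjusted p = 0.000104).

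The enzymes of nucleotide supply were all higher in both steps. Rrm1, the large subunit of ribonucleotide reductase, which makes deoxynucleotides, stood at 43.3, 41.6 and 50.4 CPM in euploid, 70.1, 75.8 and 80.9 in Ts65Dn, and 88.1, 88.6 and 88.3 in the libraries labelled Ts65Dn;Brwd1+/- (0.75 ± 0.09, adjusted p = 0.000146, then 0.23 ± 0.09, adjusted p = 0.0438). The second call of Rrm1 was lost in part of the alternatives, as without Ts65Dn replicate 1 (0.17, adjusted p = 0.142). Its partner Rrm2, the subunit made in S phase, had the larger second step (0.52 ± 0.09 and 0.74 ± 0.09, adjusted p = 0.00161 and 8.4e-05). The ratio of Rrm2 to Rrm1 within a library was 0.634 ± 0.076, 0.538 ± 0.028 and 0.771 ± 0.018 (SD, n = 3) in the 3 genotypes in that order. Tyms, thymidylate synthase, stood at 5.68, 5.70 and 5.69 CPM, then 8.86, 9.88 and 11.03, then 12.5, 13.4 and 12.8, with steps of 0.80 ± 0.10 (adjusted p = 0.000283) and 0.38 ± 0.10 (adjusted p = 0.00744).

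Genes of G1/S control moved apart from each other. Uhrf1, which guides DNA methylation to newly copied DNA, stood at 13.8, 18.4 and 16.3 CPM in euploid, 20.7, 26.4 and 25.7 in Ts65Dn, and 48.2, 47.2 and 52.1 in the libraries labelled Ts65Dn;Brwd1+/- (0.58 ± 0.12, adjusted p = 0.0039, then 1.02 ± 0.12, adjusted p = 6.06e-05). E2f1, an activating E2F factor, stood at 19.6, 22.8 and 21.1 CPM, then 17.96, 22.5 and 22.2, then 22.4, 19.5 and 23.4, and the ranges of the 3 groups overlapped. Its log2 fold changes were -0.02 ± 0.11 and 0.07 ± 0.11 (adjusted p = 0.891 and 0.637). The cyclins that drive entry into S phase differed in where they passed: Ccne1 had 0.51 ± 0.12 and then 0.13 ± 0.12 (adjusted p = 0.00754 and 0.361), and Ccne2 had 0.31 ± 0.11 and then 0.47 ± 0.10 (adjusted p = 0.0381 and 0.00363). With DESeq2 the first step of Ccne2 had an adjusted p of 0.118.

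**Figure D5:**
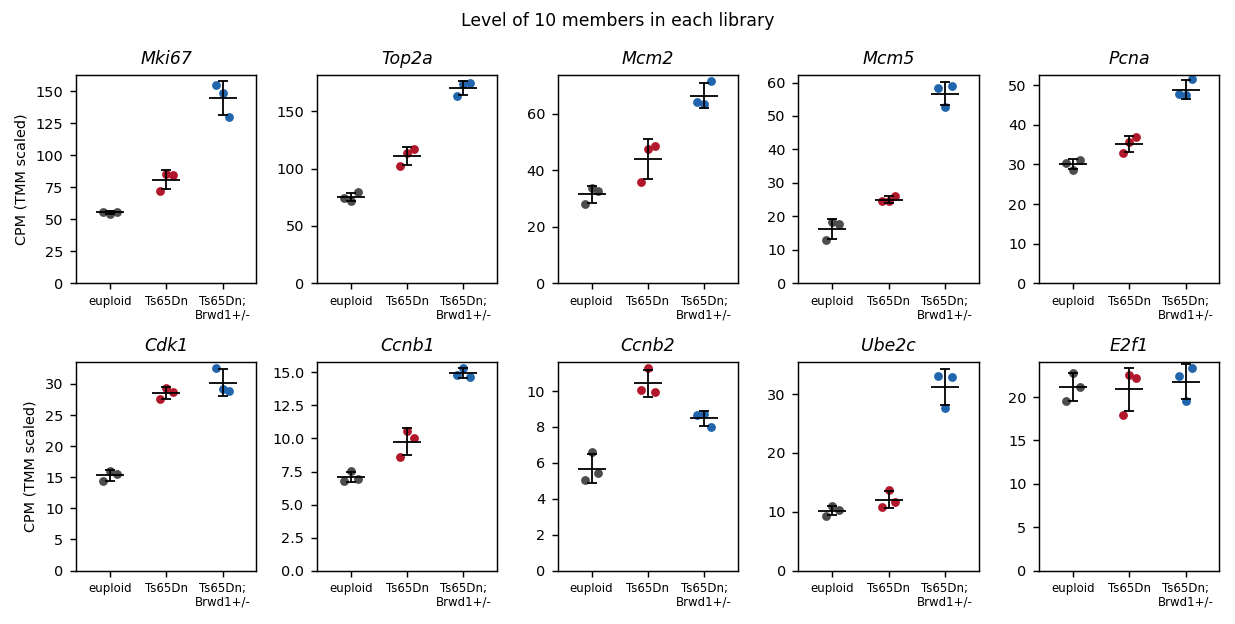
CPM of 10 members in each library, with the mean and SD of 3 libraries per genotype, each axis starting at 0. Mki67, Top2a, Mcm2, Mcm5, Pcna and Ccnb1 climb in both steps, Cdk1 stands near 29 CPM in both trisomic groups, Ube2c rises in the libraries labelled Ts65Dn;Brwd1+/-, and the E2f1 points overlap.

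Both marks of chromosome structure in dividing cells climbed each step. Mki67, which coats mitotic chromosomes and is the usual mark of cycling cells, stood at 55.7, 54.2 and 55.9 CPM in euploid, 72.4, 85.2 and 84.8 in Ts65Dn, and 155, 149 and 130 in the libraries labelled Ts65Dn;Brwd1+/-. Its steps were 0.55 ± 0.09 (adjusted p = 0.00106) and 0.84 ± 0.09 (adjusted p = 3.22e-05). Top2a, the topoisomerase that untangles sister chromatids, stood at 74.8, 72.1 and 79.4 CPM, then 102, 114 and 117, then 163, 174 and 175, with steps of 0.56 ± 0.08 (adjusted p = 0.000399) and 0.62 ± 0.08 (adjusted p = 8.05e-05). Neither gene overlapped between groups.

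Mitotic cyclins and their kinase did not keep one proportion. Ccna2, cyclin A2, stood at 17.9, 17.1 and 18.7 CPM in euploid, 25.4, 29.4 and 27.8 in Ts65Dn, and 46.3, 44.4 and 44.4 in the libraries labelled Ts65Dn;Brwd1+/- (0.62 ± 0.08, adjusted p = 0.000214, then 0.71 ± 0.08, adjusted p = 2.99e-05). Cdk1, the kinase that cyclins A and B activate, stood at 14.4, 16.01 and 15.6 CPM, then 27.5, 29.3 and 28.7, then 32.6, 29.2 and 28.9. Its first step was 0.90 ± 0.08 (adjusted p = 2.9e-05) and its second 0.08 ± 0.08 (adjusted p = 0.372), with the trisomic groups overlapping. Within a library, the ratio of Ccna2 to Cdk1 was 1.17 ± 0.092 in euploid, 0.965 ± 0.04 in Ts65Dn and 1.49 ± 0.065 in the libraries labelled Ts65Dn;Brwd1+/- (SD, n = 3).

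The B cyclins went in opposite directions in the second step. Ccnb1 stood at 6.75, 7.54 and 6.96 CPM in euploid, 8.62, 10.6 and 10.1 in Ts65Dn, and 14.8, 15.4 and 14.6 in the libraries labelled Ts65Dn;Brwd1+/- (0.46 ± 0.10, adjusted p = 0.00518, then 0.62 ± 0.10, adjusted p = 0.000429). Ccnb2 stood at 5.05, 6.58 and 5.42 CPM, then 10.0, 11.3 and 9.97, then 8.70, 8.74 and 7.99, so that its highest group was Ts65Dn. Its first step was 0.87 ± 0.12 (adjusted p = 0.000383) and its second -0.30 ± 0.11 (adjusted p = 0.0444). The second call was lost in part of the alternatives: the adjusted p was 0.115 with DESeq2 and 0.0961 with scaling by library size only, and it missed 0.05 without any 1 of the 6 trisomic libraries, while the value stayed below 0 in each. The ratio of Ccnb2 to Ccnb1 was 0.748, 0.872 and 0.778 in the euploid libraries, 1.17, 1.07 and 0.992 in Ts65Dn and 0.588, 0.569 and 0.546 in those labelled Ts65Dn;Brwd1+/-. The 3 groups did not overlap in that ratio, which was chosen for the opposite second steps and has no test. The windows of both B cyclins held CCAAT and CHR matches.

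Of the other mitotic kinases, Aurka, Aurkb and Plk1 were higher in both steps. The second call of Aurka and the first of Aurkb were lost in some fits that left out a library. In the checkpoint and kinetochore group, Bub1, a checkpoint kinase at kinetochores, had the largest first step of all members, from 5.58, 5.66 and 5.24 CPM to 10.4, 12.1 and 11.6, and reached 15.5, 15.9 and 13.6 in the libraries labelled Ts65Dn;Brwd1+/- (1.05 ± 0.10, adjusted p = 5.81e-05, then 0.40 ± 0.10, adjusted p = 0.00542). Cenpf, a kinetochore protein, stood at 29.1, 25.9 and 25.0 CPM, then 33.9, 40.4 and 39.0, then 48.2, 51.9 and 44.5 (0.50 ± 0.10 and 0.35 ± 0.09, adjusted p = 0.00233 and 0.00886). Bub1b, Cenpe and Birc5 (survivin, of the chromosomal passenger complex) were higher in both steps as well.

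Spindle proteins divided again. Tpx2, which seeds microtubules near chromosomes and activates aurora A, stood at 27.2, 32.2 and 32.3 CPM in euploid, 41.3, 45.6 and 43.9 in Ts65Dn, and 59.6, 58.6 and 60.9 in the libraries labelled Ts65Dn;Brwd1+/- (0.51 ± 0.08, adjusted p = 0.000922, then 0.45 ± 0.08, adjusted p = 0.000895). Kif23, a motor of the central spindle, stood at 12.6, 15.7 and 16.7 CPM, then 25.6, 26.6 and 25.1, then 25.5, 27.2 and 27.1, with steps of 0.78 ± 0.10 (adjusted p = 0.000267) and 0.05 ± 0.10 (adjusted p = 0.707). Kif20a, another motor of that structure, had 0.61 ± 0.13 and 0.25 ± 0.13 (adjusted p = 0.00455 and 0.116), and its second step passed with replicate number as a block (adjusted p = 0.0226). Nusap1, which bundles spindle microtubules, took most of its rise in the second step (0.55 ± 0.09, adjusted p = 0.00106, then 1.05 ± 0.09, adjusted p = 7.46e-06).

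Ube2c, the ubiquitin-conjugating enzyme that works with the anaphase-promoting complex to end mitosis, stood at 9.32, 10.97 and 10.3 CPM in euploid, 10.8, 13.6 and 11.7 in Ts65Dn, and 33.0, 27.6 and 32.9 in the libraries labelled Ts65Dn;Brwd1+/-. The first 2 groups overlapped (0.24 ± 0.12, adjusted p = 0.123), and the second step of 1.37 ± 0.11 (adjusted p = 6.74e-06) was the largest of all members.

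Further genes of the same processes were counted as well, and their counts are to be read against the shares over all tested genes, 25.6% higher and 21.1% lower from euploid to Ts65Dn, 14% and 15.2% from euploid to the libraries labelled Ts65Dn;Brwd1+/-, and 27.6% and 30.5% from Ts65Dn to those libraries. Of 44 other replication genes, 23 were higher and 1 lower from euploid to Ts65Dn, 33 higher and 0 lower from euploid to the libraries labelled Ts65Dn;Brwd1+/-, and 31 higher and 1 lower from Ts65Dn to those libraries, with medians of 0.29, 0.77 and 0.41. In the first step the origin recognition genes Orc1, Orc2, Orc3, Orc4 and Orc6 were not called and Orc5 was lower (-0.28, adjusted p = 0.0263). Chaf1b, which deposits histones behind the fork, had the largest changes from euploid (1.48 ± 0.12 and 2.52 ± 0.12, adjusted p = 1.89e-05 and 1.48e-06), and it lies in the triplicated segment. Donson, another fork gene of this list in that segment, was higher in all 3 contrasts as well. Clspn, a fork checkpoint adaptor outside that segment, was next, with 0.95 ± 0.14 and 1.70 ± 0.13 (adjusted p = 0.00049 and 2.3e-05). Ticrr, needed to fire origins, and Dck, a nucleoside kinase that also activates AraC, led the second step at 1.09 ± 0.13 and 1.07 ± 0.08 (adjusted p = 6.11e-05 and 4.5e-06), after first steps of 0.26 and 0.06 that were not called. Of 60 tested other mitosis genes, 51, 56 and 44 were higher in the 3 contrasts in the same order, and 0, 0 and 2 lower, with medians of 0.53, 1.03 and 0.54. The largest were Cdca5, a guardian of sister cohesion (0.92 ± 0.15, adjusted p = 0.000959), and Kifc1, a minus-end motor (0.88 ± 0.13, adjusted p = 0.000519), in Ts65Dn against euploid. In the second step they were the checkpoint kinase Ttk and Foxm1, a factor that drives G2/M genes (1.24 ± 0.13 and 1.11 ± 0.10, adjusted p = 2.38e-05 and 9.15e-06). The 2 lower in that step were Ckap2 and Anln.

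Genes that gate entry into the cycle were counted in the same way. Of 27, 16 were higher and 3 lower from euploid to Ts65Dn, 14 and 3 from euploid to the libraries labelled Ts65Dn;Brwd1+/-, and 8 and 9 from Ts65Dn to those libraries. The last counts are close to the shares over all tested genes, 27.6% higher and 30.5% lower. Ccnd1, cyclin D1, stood at 57.9, 64.9 and 57.8 CPM in euploid, 177, 235 and 218 in Ts65Dn, and 99.3, 94.0 and 91.1 in the libraries labelled Ts65Dn;Brwd1+/-, so that Ts65Dn was highest (1.80 ± 0.11, adjusted p = 2.53e-06, then -1.15 ± 0.11, adjusted p = 1.33e-05). Ccnd2 rose in the first step alone by its call (0.54 ± 0.09 and 0.03 ± 0.09, adjusted p = 0.000886 and 0.785). E2f2, another activating E2F, stood at 2.14, 2.19 and 1.77 CPM, then 2.65, 2.77 and 2.25, then 10.3, 9.80 and 11.7, with a second step of 2.05 ± 0.13 (adjusted p = 1.93e-06). Mycn, a transcription factor of dividing progenitors, was lower in Ts65Dn than in euploid and higher in the libraries labelled Ts65Dn;Brwd1+/- than in Ts65Dn (-1.28 ± 0.13 and 1.71 ± 0.13, adjusted p = 7.76e-05 and 5.09e-06). E2f8, a repressing E2F, was higher in both steps (0.87 ± 0.18 and 0.53 ± 0.17, adjusted p = 0.00395 and 0.0227).

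Of the CIP/KIP inhibitors of cyclin-dependent kinases, Cdkn1a and Cdkn1c were highest in Ts65Dn. Cdkn1a, the p21 inhibitor that p53 induces, stood at 89.7, 106 and 105 CPM in euploid, 212, 235 and 234 in Ts65Dn, and 87.1, 91.2 and 96.4 in the libraries labelled Ts65Dn;Brwd1+/- (1.18 ± 0.09, adjusted p = 8.43e-06, then -1.31 ± 0.09, adjusted p = 2.09e-06). Cdkn1c, the p57 inhibitor, had the same order, with 1.15 ± 0.13 and -1.59 ± 0.14 (adjusted p = 0.000141 and 9.02e-06). Cdkn1b, the p27 inhibitor, was called in no contrast (0.06 ± 0.07 and 0.14 ± 0.07, adjusted p = 0.497 and 0.104). Rb1, which holds E2F factors in check, was lower in the second step (-0.44 ± 0.10, adjusted p = 0.00326) and was not called in the first (0.15 ± 0.10, adjusted p = 0.239). Against those same shares over all tested genes, of 16 p53 targets, Cdkn1a among them, 12 were higher and 1 lower from euploid to Ts65Dn, 1 and 7 from euploid to the libraries labelled Ts65Dn;Brwd1+/-, and 1 and 13 from Ts65Dn to those libraries. Their summed level was 1185 to 1220 CPM in euploid, 1553 to 1885 in Ts65Dn and 914 to 967 in the libraries labelled Ts65Dn;Brwd1+/-. Pmaip1, which promotes apoptosis, had the largest first step (2.66 ± 0.18, adjusted p = 4.94e-06), followed by Phlda3, an AKT inhibitor (1.25 ± 0.10, adjusted p = 1.77e-05). In the libraries labelled Ts65Dn;Brwd1+/- against euploid the death receptor gene Fas and Ccng1, a cyclin G gene, were lowest (-1.44 ± 0.15 and -0.78 ± 0.12, adjusted p = 0.0001 and 0.000947).

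Counts of marker genes stand beside 25.6% of all tested genes higher and 21.1% lower in the first step, and 27.6% and 30.5% in the second, so that 3 of 10 in one direction is near the background. Of the marker lists for other cells, the one for oligodendrocyte precursors had higher sums in both steps, as the members did. Of 7 tested markers of oligodendrocyte precursors, 4 were higher and 0 lower in the first step and 5 higher and 1 lower in the second, and their sum was 260 to 319 CPM in euploid, 501 to 614 in Ts65Dn and 870 to 1080 in the libraries labelled Ts65Dn;Brwd1+/-. Olig1 made up most of the first step of that sum, with a mean of 220 CPM in euploid and 452 CPM in Ts65Dn, and Olig1 and Olig2 lie in the triplicated segment. Pdgfra, a defining receptor of these cells outside it, was not called in the first step (means of 18.9 and 14.7 CPM, adjusted p = 0.0869) and was higher in the second (mean of 128 CPM, adjusted p = 5.48e-07). Also outside the segment, Cspg4 had means of 6.85, 18.1 and 43.5 CPM in the 3 genotypes, and Matn4 of 2.49, 17.4 and 2.13 CPM. Of 7 tested markers of intermediate progenitors, 2 were higher and 5 lower in the first step and 5 higher and 2 lower in the second, with sums of 190 to 224, 174 to 208 and 307 to 339 CPM. Neurog1, a marker of that list, had at most 1 count in any library. Of 10 radial glia markers, 6 were higher and 3 lower in the first step and 3 higher and 5 lower in the second, with sums of 4928 to 5643, 7342 to 9177 and 4198 to 4782 CPM. Vim, which glia and fibroblasts also make, carried the pattern of the sum with means of 2716, 5733 and 1537 CPM. Ts65Dn also had the highest mean for Nes (287, 516 and 286 CPM), Pax6 (70.6, 155 and 62.8 CPM), Hes1, Sox2 and Notch1. The other 9 radial glia markers summed to 2287 to 2723, 2305 to 2552 and 2907 to 3157 CPM, so that euploid and Ts65Dn overlapped and the libraries labelled Ts65Dn;Brwd1+/- stood highest. Slc1a3 was the most abundant of those 9 and went the other way from Vim, with means of 1309, 854 and 1622 CPM. Hes5 and Fabp7 were also lowest in Ts65Dn, and Prom1 was lower in each step. Of 8 astrocyte markers, 5 were higher and 1 lower, then 2 higher and 5 lower, with sums of 2147 to 2632, 3032 to 3532 and 2368 to 2700 CPM. Of 10 neuronal markers, 0 were higher and 9 lower in the first step and 9 higher and 0 lower in the second, with sums of 3876 to 4806, 995 to 2457 and 4026 to 5031 CPM. The part of these cell types in the member values was not tested.

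Of 8 fibroblast and meningeal markers, 5 were higher and 3 lower in the first step and 1 higher and 6 lower in the second, with sums of 374 to 478, 821 to 1361 and 250 to 305 CPM. Of 5 tested microglial markers, 0 were higher and 2 lower, then 0 and 4, with sums of 7.51 to 14.03, 3.80 to 5.76 and 1.12 to 1.83 CPM. Cx3cr1, C1qa, C1qb, Itgam and Tmem119 had at most 3 counts per library in the group labelled Ts65Dn;Brwd1+/-. Of 3 tested endothelial markers, 1 was higher and 0 lower, then 0 and 2, with sums of 81.7 to 90.6, 654 to 860 and 87.3 to 130 CPM. Nearly all of that sum was Kdr, with means of 83.1, 755 and 112 CPM. Pecam1 and Flt1 were not called in the first step, with means of 0.768 and 1.55 CPM in euploid and 0.444 and 1.24 CPM in Ts65Dn. Cldn5, a defining endothelial gene, was listed at 0 in all 9 libraries, and Emcn had at most 1 count. Whether these cells bear on the member values was not tested.

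In nuclei of adult neurons, which do not divide, most member promoters held an ATAC-seq peak. ATAC-seq peaks within 250 bases of the start named 28 of 40 members in the euploid list, 31 in the Ts65Dn list and 32 in the Ts65Dn;Brwd1+/- list, beside 52.3, 62.9 and 62.1% of 14259 tested protein-coding genes. A peak in all 3 lists was held by 25 of 40 members, beside 47.3% of those genes. They were Mcm2, Mcm3, Mcm5, Mcm6, Pcna, Rrm1, Gins2, Cdc6, Cdt1, Pola1, Ccne1, Ccne2 and E2f1 for replication, and Mki67, Top2a, Bub1, Cdk1, Ccna2, Ccnb1, Cenpe, Cenpf, Kif20a, Kif23, Tpx2 and Birc5 for mitosis. Mcm7, Rrm2, Tyms, Uhrf1 and Bub1b were named for none in the euploid list, Ccnb2 and Ube2c in the Ts65Dn list, and Cdc45 in the Ts65Dn;Brwd1+/- list. Mcm4, Prim1, Aurka, Aurkb, Kif11, Plk1 and Nusap1 were named for no promoter peak. For Mcm4, Aurka, Plk1 and Nusap1 a peak lay within 1000 bases of the gene start in all 3 lists and was named for a neighbour, such as Prkdc at Mcm4 and Oip5 at Nusap1. The same was so for Mcm7 in the euploid list (Ap4m1, fold 3.74), Ube2c in the Ts65Dn list (Gm11457, fold 6.95) and Cdc45 in the Ts65Dn;Brwd1+/- list (Ufd1, fold 3.78), so these starts held a peak that named another gene. The lists hold 15521, 29195 and 30244 peaks and give 1 value per genotype, so these counts have no replicate error.

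Peak heights of the members moved as those of other genes did. Pcna had the highest fold enrichment of any member promoter in each list, with 8.98, 9.47 and 8.07 for euploid, Ts65Dn and Ts65Dn;Brwd1+/-. For Mki67 the values were 3.77, 4.41 and 4.18, for Top2a 4.71, 6.56 and 5.26, and for Cdk1 4.48, 6.91 and 4.91. E2f1, flat in the cultures, had 5.19, 5.5 and 4.59. Of the 25 members with a peak in all 3 lists, 24 had a higher fold in Ts65Dn than in euploid, beside 94.2% of 6740 protein-coding genes with such peaks. In Ts65Dn;Brwd1+/- 22 of 25 were lower than in Ts65Dn, beside 90.4% of those genes, and 15 of 25 were higher than in euploid, beside 62% of them. The members' medians over their promoter peaks were 4.71, 5.63 and 4.69, and those of all tested protein-coding genes were 4.61, 5.48 and 4.61.

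SMARCA2/4 peaks were rare at the members. The euploid list named 4 of 40 members, the Ts65Dn list 1 and the Ts65Dn;Brwd1+/- list 0, beside 43.2, 4.68 and 5.41% of tested protein-coding genes. Ccnb1 was the single member named for a proximal promoter peak (chr13:100786700-100786809, mm10, fold 2.64, q = 0.119). A peak at E2f1 lay within 1 kb upstream (chr2:154570133-154570207, fold 3.27, q = 0.054), and one was listed as gene body of Cdk1 (chr10:69334663-69334770, fold 3.25, q = 0.0161). In the annotation used here Cdk1 spans chr10:69335146-69352938 on the minus strand, so that peak lies past its 3′ end. A euploid peak within 1000 bases of the Mcm7 start (fold 4.27) was named for its neighbour Ap4m1 and is not among the 4. Kif23 had the strongest, at -1408 bases from its start (chr9:61948146-61948219, fold 5.71, q = 1.38e-07), and was the single member named in the Ts65Dn list (chr9:61948331-61948378, fold 3.99, q = 0.0903), by a peak that does not overlap the euploid one. With a q-value under 0.05 and a fold over 1.2, 2, 0 and 0 members remained in the 3 lists, Kif23 and Cdk1 in euploid, beside 40.4, 1.34 and 2.97% of tested protein-coding genes. At the low shares of both trisomic lists, 0 of 40 is near the background. The whole lists hold 22667, 1290 and 1873 peaks, so there are fewer peaks across the whole of the trisomic lists too.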

How the data were processed

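Gene counts were deposited per library as whole reads per Ensembl gene. Per the study's methods the authors aligned reads with HISAT2 to mm10 and counted with featureCounts (Ensembl annotation), while the files close with the special lines another counter writes. Lines naming no gene held 37.45 to 40.04% of each total and were left out. The deposited peak lists give, per the file headers, a fold enrichment and a q-value per peak, 1 list per genotype, with the joining of replicates not given in the sources used here. The SMARCA2/4 lists also hold peaks that miss the filter the study states.

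Counts were tested with edgeR 4.0.16 in R 4.3.3 (filterByExpr, TMM, quasi-likelihood F-test, 9 libraries in 1 fit, Benjamini-Hochberg over 17173 genes, threshold 0.05), after a test on simulated data. DESeq2 1.42.0, other scalings, filters, an RUVr factor, a replicate block and leaving out libraries were alternatives. Library totals were 17270070 to 25892802 counts. Replicate numbers come from the labels, and same-numbered euploid and Ts65Dn libraries deviated together (correlations 0.129, 0.207 and 0.263). Within each genotype, no pair of libraries agreed within sampling noise by a chi-square test of counts.

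Members and gene lists were chosen with earlier results of these data known. Genes named with values are, in each role, the member with the highest mean CPM and that with the largest change in Ts65Dn, with Mki67, Top2a, Pcna, Mcm2, Cdk1 and E2f1 always, members departing from their set, a fixed set of cycle regulators and the 2 largest changes of each other list. The per-library values of Mcm5 and Ccnb1, the fold changes of Rrm2, Cdc6, Ccne2 and Nusap1, the Orc genes, Donson, Ckap2, Anln, markers singled out within a list and the within-library ratios were added after their values were seen. Promoter windows matched 33 of 40 members by symbol.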

Additional observations from a re-analysis of the deposited data

How the results depend on the processing

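Pcna, Pola1 and Ccne2 in Ts65Dn against euploid lost their calls with DESeq2, where 14 replication members were higher in place of 17, and the cause was not tested. They also lost them in edgeR with scaling by library size only (adjusted p = 0.0647, 0.0544 and 0.076). The same held without a filter and with only the 2 genotypes compared. Without 1 library at a time, Pcna and Ccne2 lost theirs in most fits and Pola1 in some. Over single genes and contrasts, 2035 values kept direction and call, 58 lost the call, 5 gained it and 8 changed sign. E2f1, called in no contrast, accounts for all but 1 of the last. Without 1 library at a time, E2f1 ranged from -0.08 to 0.08 in Ts65Dn against euploid (0.08 without Ts65Dn replicate 1, 0.03 without euploid replicate 2). From euploid to the libraries labelled Ts65Dn;Brwd1+/- it ranged from -0.04 to 0.10, with -0.0011 and -0.04 without their replicates 1 and 3 and -0.0096 and -0.0026 without euploid replicates 1 and 3. From Ts65Dn to those libraries it ranged from -0.04 to 0.14 and Gins2 from -0.02 to 0.16, both lowest without Ts65Dn replicate 1. Leaving out 1 library gave 14 to 16 replication and 16 to 18 mitosis members higher in Ts65Dn against euploid, 19 and 19 in every case for the libraries labelled Ts65Dn;Brwd1+/- against euploid, and 15 to 16 and 14 to 15 against Ts65Dn. The mitosis sum of the libraries labelled Ts65Dn;Brwd1+/- against euploid was 2.14-fold by mean log2 CPM in place of 2.24-fold. Members with a SMARCA2/4 peak were 2 in euploid and 0 in Ts65Dn at a q-value under 0.05 and fold over 1.2 (40.4% and 1.34% of tested protein-coding genes), and 0 in Ts65Dn within 1000 bases of the start (1.86%). With the replicate block, 17 replication and 18 mitosis members were higher in Ts65Dn against euploid, as without it, and of the member calls only that of Kif20a changed (0.25, adjusted p = 0.0226, edgeR). Same-numbered libraries did not all deviate together with the third genotype (correlations from -0.162 to 0.186 with euploid and from -0.125 to 0.279 with Ts65Dn).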
